A study of Mus musculus with 22 samples.

Results

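The comparison described here is the effect of the offspring's own diet in liver, averaged over the diets of their mothers. All 22 arrays of the series took part, 11 from mice fed a western diet and 11 from mice fed a low-fat control diet. Each array holds liver RNA of 1 male C57BL/6J mouse, an inbred strain, at 29 weeks of age. Dams were put on the western diet (W) or the low-fat diet (L) at 5 weeks of age, 6 weeks before mating, and their sons then ate W or L for 24 weeks. A group name gives the dam's diet and then the son's diet: LW (5 mice) and WW (6 mice) are called W-fed here, and LL (6 mice) and WL (5 mice) are called L-fed. The difference reported throughout is ((LW + WW) - (LL + WL)) / 2 of the group means, so that both dam diets count equally. The submitters left out 1 experimental and 1 biological outlier from groups of 6, and the labels give neither the composition of the diets nor the litters, so litter mates among the mice cannot be told from unrelated mice. Where mice of a group shared a litter, the p-values take them for independent animals.

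The liver stores fat when dietary supply exceeds what it burns or exports, and the sterol-responsive factors SREBP and LXR and the fatty acid receptors PPAR-alpha and PPAR-gamma set the transcription of the enzymes involved. Rodent liver is also sexually dimorphic: the pulsatile growth hormone of males acts through the factor STAT5 to hold male-biased genes high and female-biased genes low. Hepatic genes of lipid, sterol and drug metabolism are further driven by the circadian clock. These properties are background from the field and were not measured here.

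The signal of an array was an intensity per probe on an Illumina BeadChip, background-corrected and quantile-normalized and put on a log2 scale, so a difference of 1 is a 2-fold ratio. Genes were taken as measured where a probe was detected (detection p below 0.05) on at least 5 arrays, which left 9881 named genes, each read from its probe with the highest mean. Mean signal per array before normalization had a lowest, median and highest value of 198, 228.2 and 276.5 in W-fed mice and of 151.1, 246.2 and 268.2 in L-fed mice. The value of 151.1 was that of LL replicate 1. The number of detected probes per array had a median of 14428 in W-fed and 14440 in L-fed mice. The tissue label was borne out by the secreted hepatocyte products Ttr, Ahsg, Trf and Apoa1, whose log2 intensities lay between 13.56 and 15.40 on all 22 arrays. The tested probe of Alb, which encodes albumin, was dim at 5.96 to 7.26 in W-fed and 5.97 to 7.35 in L-fed mice, and was not used to judge the tissue. In whole liver, fewer cells of a type and less RNA per cell cannot be told apart. The arrays lay on 4 slides with 4 W-fed and 1 L-fed mice on slide 1, 4 and 2 on slide 2, 1 and 4 on slide 3, and 2 and 4 on slide 4. Slide accounted for variation in many genes: 1592 of the 9881 had an adjusted p below 0.05 for slide, and a fit with slide as a fixed block is therefore given where it ended a call. LL replicate 1 and WL replicate 5 lay apart from their groups for many of the genes named here, and for a named gene whose call was lost on leaving out 1 array the adjusted p of that fit is given. Where leaving out 1 array moved a list's median by over 1.5 times, the median without the array that moved it most is given.

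At a Benjamini-Hochberg adjusted p below 0.05 by limma, 268 genes were called between W-fed and L-fed livers, which is 2.71% of those tested. Of these 151 (1.53% of all genes) were higher and 117 (1.18%) were lower in W-fed mice. Counts of called members of a list are to be read beside these shares. The differences were mostly modest. Their median size was 0.505 on the log2 scale, and 31 genes differed at least 2-fold, 17 of them higher and 14 lower in W-fed mice. Only 5 genes (0.0506% of all tested) had 11 W-fed mice that did not overlap with the 11 L-fed mice. Cyp2b13, Tmem45b and Slc22a18 were the 3 higher ones (0.0304% of all genes), and Cyp4a12b and Srd5a1 the 2 lower ones (0.0202%). In most L-fed mice Cyp2b13 and Tmem45b were below detection. With slide as a block 248 genes (2.51%) were called, 144 of them among the 268. All 268 kept their direction in that fit, and 255 of them had the same direction within each of the 4 slides. The 268 were called on these same arrays, which favours such genes, so nothing is read from these counts. Slide 1 held 1 L-fed mouse and slide 3 held 1 W-fed mouse. The number of called genes depended on single arrays: it was 136 without WL replicate 5, 142 without WW replicate 2, 144 without LW replicate 1, 154 without LL replicate 5, 170 without LL replicate 6, 413 without WW replicate 6 and 524 without LL replicate 1. Without both LL replicate 1 and WL replicate 5, 208 genes were called, 163 of them among the 268. Under normexp background correction with median scaling instead of quantile normalization, 139 genes were called, of which 74.1% were higher in W-fed mice, against 56.3% of the 268.

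**Figure D1:**
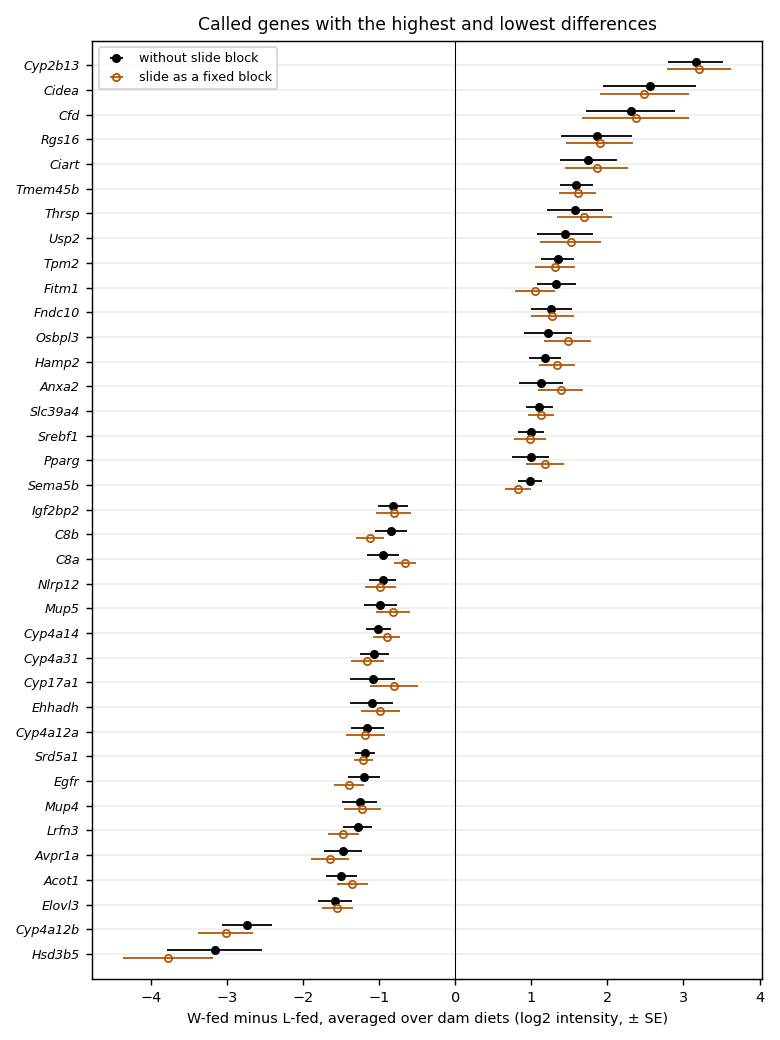
Log2 difference, W-fed minus L-fed averaged over dam diets, with its standard error, for 18 of the 20 highest and 19 of the 20 lowest called genes with a gene name. Filled black points are the fit without slide and open orange points the fit with slide as a fixed block; Cyp2b13 leads at 3.16 and Hsd3b5 is lowest at -3.17, and every gene kept its side of 0 in both fits.

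Genes that are normally higher in male than in female liver were the list with the lowest median difference. Of 16 male-biased genes tested, 7 were called lower and 0 higher in W-fed mice, with a median difference of -0.559 over the 16 against 0.005 over all genes. The 7 were Cyp4a12b, Cyp4a12a, Hsd3b5, Elovl3, Mup4, Mup5 and C6. The count of called members ran between 6 and 8 over the fits that left out 1 array. Hsd3b5, a steroid-metabolising enzyme of male mouse liver, had log2 intensities of 4.83, 7.63 and 11.02 in W-fed livers (lowest, median and highest), against 8.42, 11.05 and 12.41 in L-fed livers. The groups overlapped, and W-fed mice were widely scattered. Its difference was -3.17 ± 0.62 (SE), lower in W-fed mice (adjusted p = 0.00752). The lowest W-fed values lie near background, where differences are compressed, so no fold is given. Cyp4a12b, a male-specific arachidonic acid hydroxylase, had 7.35, 8.61 and 10.51 in W-fed livers, against 11.10, 11.91 and 12.21 in L-fed livers. Every W-fed mouse lay below every L-fed mouse. The difference was -2.74 ± 0.32 (adjusted p = 3.72e-05), with values of -2.74, -2.30, -4.04 and -3.33 within slides 1 to 4. The related Cyp4a12a had 10.47, 11.85 and 12.57 in W-fed livers, against 12.35, 12.97 and 13.27 in L-fed livers, a difference of -1.16 ± 0.22 (adjusted p = 0.00479). Cyp4a12a and Cyp4a12b are near-identical copies, and whether a probe reads 1 or both was not tested; the same holds for members of the Mup family.

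Elovl3, which lengthens very long saturated and monounsaturated fatty acids, had 8.09, 9.01 and 9.92 in W-fed livers, against 9.85, 10.54 and 12.16 in L-fed livers. Overlap was slight, with the highest W-fed mouse just above the lowest L-fed mouse. It fell by 1.58 ± 0.23 on the log2 scale in W-fed mice (adjusted p = 0.000524), and its other probe gave -1.44. Mup4, a major urinary protein that carries pheromones, differed by -1.26 ± 0.23 (adjusted p = 0.0046), Mup5 by -0.98 ± 0.22 (adjusted p = 0.0183) and the complement component C6 by -0.77 ± 0.20 (adjusted p = 0.0345). With slide as a block, Mup5 (adjusted p = 0.0568) and C6 (adjusted p = 0.0914) missed the threshold. C6 was called in 13 of the 22 fits that left out 1 array, with its highest adjusted p of 0.0844 without WL replicate 5. Not all male-biased genes were called: Mup1 differed by -0.23 (adjusted p = 0.227), Cyp2d9 by -0.12 (adjusted p = 0.612) and Cyp2u1 by -0.35 (adjusted p = 0.316). Of the 16 tested, 14 had a negative and 2 a positive difference. Cyp7b1, an oxysterol hydroxylase, differed by -0.83 ± 0.24 and missed the threshold (adjusted p = 0.0587), but passed it with slide as a block (adjusted p = 0.00889).

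Of 12 female-biased genes tested, 2 were called higher and 1 lower in W-fed mice, and their median difference was 0.191. Cyp2b13, a female-specific cytochrome P450, had 5.01, 7.61 and 9.20 in W-fed livers, against 4.28, 4.54 and 4.97 in L-fed livers. It was detected in all 11 W-fed mice and in 2 of 11 L-fed mice, and the groups did not overlap. Its difference was 3.16 ± 0.36 (adjusted p = 3.24e-05). Within slides it was 2.40, 3.45, 4.61 and 2.67 on slides 1 to 4. The L-fed level is near background, where differences are compressed. Cyp2b9, its close relative, had 8.82, 11.95 and 12.63 in W-fed livers, against 4.69, 10.21 and 11.62 in L-fed livers. Its difference of 2.15 ± 0.68 missed the threshold (adjusted p = 0.0774) and rested on a wide scatter among L-fed mice. Hamp2, a relative of the iron hormone hepcidin, had 11.16, 12.38 and 12.84 in W-fed livers, against 9.81, 11.10 and 11.53 in L-fed livers. Most W-fed mice lay above the highest L-fed mouse, and the difference was 1.18 ± 0.21 (adjusted p = 0.00322). Cyp17a1, which makes androgen precursors, was the member called lower, by -1.09 ± 0.29 (adjusted p = 0.0454). That call was lost with slide as a block (adjusted p = 0.181) and held in 5 of the 22 fits that left out 1 array, the highest adjusted p being 0.081 without LW replicate 1.

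STAT5 carries the sex-specific growth hormone signal to chromatin, so the promoters of called genes were searched for its palindrome TTCNNNGAA on both strands. The windows ran from 250 bases before to 50 bases after the start of each gene (RefSeq, GRCm38.p6). A match stood in 7.50% of 120 promoters of genes called higher, in 5.68% of 88 promoters of genes called lower, and in 8.43% of 7886 promoters of all genes tested. The matches numbered 9 of 120 and 5 of 88, too few to set these shares apart from that of all genes, and no test was run. The promoters of a gene called higher and of a gene called lower are shown with the match in capitals, each 5′ to 3′ on the minus strand.
Hamp2, chr7:30924132-30924431: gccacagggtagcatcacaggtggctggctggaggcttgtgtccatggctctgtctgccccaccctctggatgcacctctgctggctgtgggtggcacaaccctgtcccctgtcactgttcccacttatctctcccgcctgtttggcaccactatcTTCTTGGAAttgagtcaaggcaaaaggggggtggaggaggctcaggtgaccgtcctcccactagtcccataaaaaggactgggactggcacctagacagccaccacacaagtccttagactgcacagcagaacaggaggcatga
C8a, chr4:104876349-104876648: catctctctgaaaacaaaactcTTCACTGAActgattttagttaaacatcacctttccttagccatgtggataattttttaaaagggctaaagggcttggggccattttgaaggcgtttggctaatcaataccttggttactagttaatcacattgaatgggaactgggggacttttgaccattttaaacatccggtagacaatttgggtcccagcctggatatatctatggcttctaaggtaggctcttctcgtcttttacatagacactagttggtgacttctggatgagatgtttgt
In Hamp2 the match began 94 bases before the start of the gene, and in C8a, a subunit of the complement membrane attack complex, 228 bases before it. A match of letters is a description and does not show binding. The same search for the sterol response motif TCACNCCAC found 2 of the 120 promoters of genes called higher, 2 of the 88 of genes called lower and 116 of all 7886 (1.47%). The D-box TTATGTAA, bound by the clock output factor DBP, stood in 2 of 120, 2 of 88 and 59 of 7886 (0.75%). Counts of 2 are too few to set these shares against each other. The direct-repeat PPAR element stood in 0 promoters of called genes and in 2 of all 7886.

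Of 12 genes of growth hormone signalling tested, 0 were called in either direction, where 2.71% of all genes were called. Their median was -0.181 (-0.088 without LW replicate 3). The receptor Ghr differed by -0.02 ± 0.13 (adjusted p = 0.963) and Igf1, the main endocrine target, by -0.07 ± 0.12 (adjusted p = 0.796). Serpina3k, a STAT5-dependent serpin, differed by -0.87 ± 0.25 (adjusted p = 0.0572) and Socs2, a feedback inhibitor, by -0.87 ± 0.29 (adjusted p = 0.0978). Serpina3k passed the threshold with slide as a block (adjusted p = 0.0208). Among 12 growth factor and hormone receptors 2 were called, both lower in W-fed mice. Egfr, the epidermal growth factor receptor, had 8.25, 8.88 and 9.71 in W-fed livers, against 9.58, 9.99 and 11.34 in L-fed livers. The groups overlapped slightly at a difference of -1.20 ± 0.21 (adjusted p = 0.00308), and its other 4 probes gave -0.30 to -1.11. Avpr1a, a vasopressin receptor, had 6.57, 7.25 and 8.72 in W-fed livers, against 7.76, 8.63 and 10.43 in L-fed livers. It fell by 1.48 ± 0.25 on the log2 scale (adjusted p = 0.00207), 2.78-fold lower in W-fed mice.

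Steroid-converting enzymes held the gene with the smallest p of the whole comparison. Srd5a1, the reductase that turns testosterone into dihydrotestosterone and also acts on glucocorticoids, had 7.04, 7.35 and 7.78 in W-fed livers, against 8.09, 8.44 and 9.56 in L-fed livers. The 11 W-fed mice all lay below the 11 L-fed mice. Its difference was -1.19 ± 0.13, 2.28-fold lower (adjusted p = 1.44e-05), and -1.03, -1.05, -1.29 and -1.37 within slides 1 to 4. Of 11 enzymes of this list, 1 was lower (Srd5a1) and 1 higher (Akr1c19). Hsd3b5 and Cyp17a1, which also act on steroids and were called lower, were counted with the sex-biased genes instead. Akr1c19, an aldo-keto reductase, differed by 0.76 ± 0.18 (adjusted p = 0.0215) and missed the threshold with slide as a block (adjusted p = 0.073). The second reductase gene Srd5a2 differed by 0.49 ± 0.15 (adjusted p = 0.0653).

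**Figure D2:**
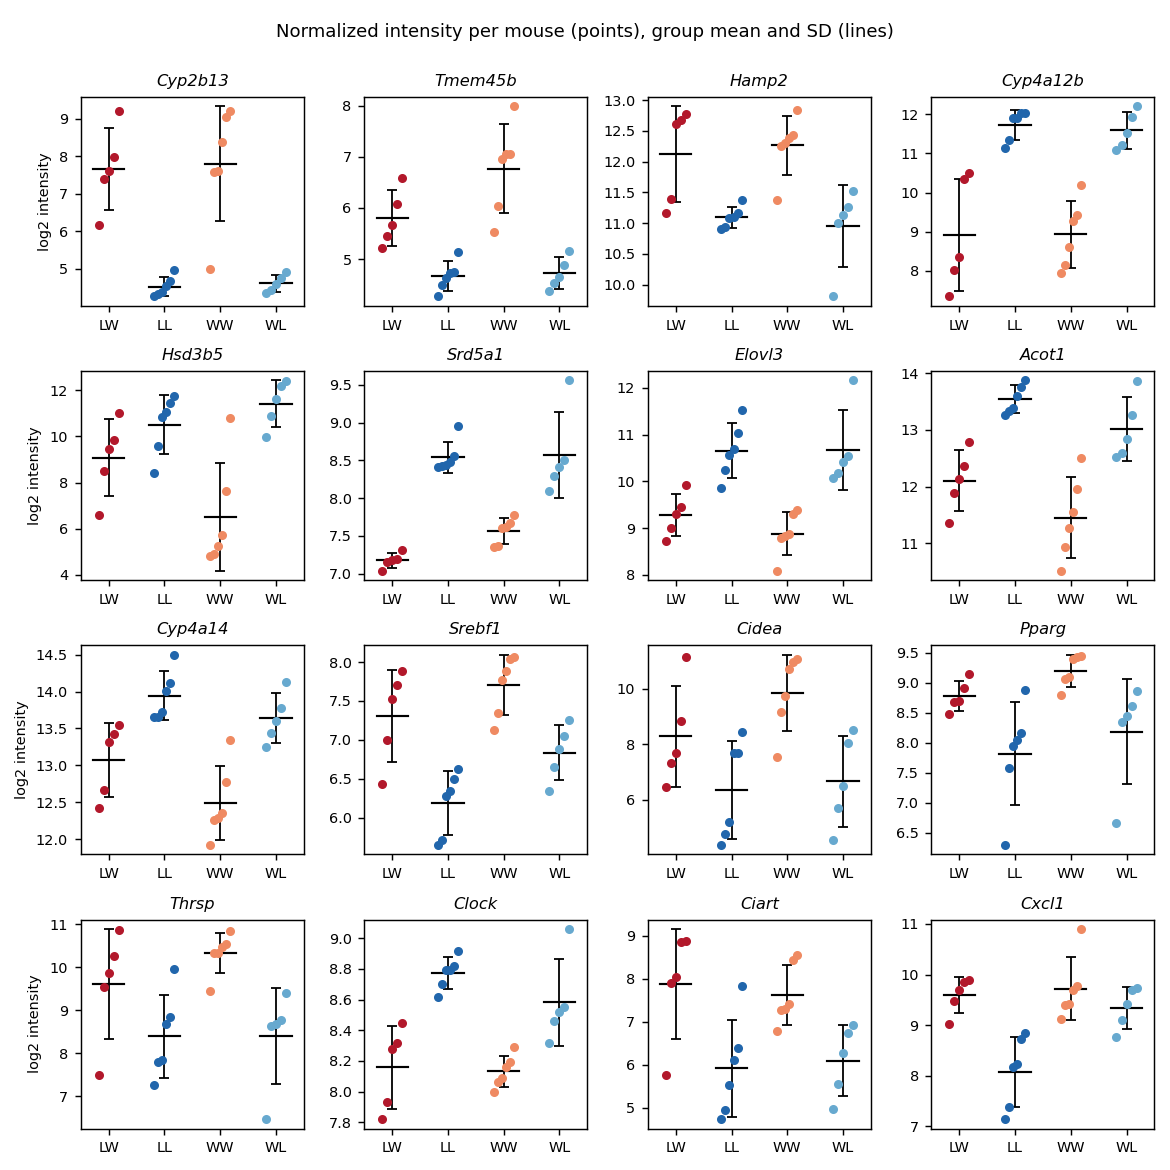
Log2 intensity of 16 genes in each mouse (points), with the group mean and SD (black lines), for LW and LL (sons of L dams) and WW and WL (sons of W dams). Srd5a1 lies between 7.04 and 7.78 in W-fed mice, below its range of 8.09 to 9.56 in L-fed mice, and Cyp2b13 separates the diets as completely, whereas Hsd3b5 overlaps.

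Of 22 genes of fatty acid and triglyceride synthesis, 2 were called higher and 0 lower, with a median of 0.121 (0.078 without WL replicate 5). Srebf1, which encodes SREBP-1, the main activator of fatty acid synthesis genes, had 6.43, 7.70 and 8.07 in W-fed livers, against 5.65, 6.50 and 7.26 in L-fed livers. It was 2.0-fold higher in W-fed mice, a difference of 1.00 ± 0.17 (adjusted p = 0.00207). Thrsp, a lipogenic coactivator known as Spot 14, had 7.48, 10.33 and 10.87 in W-fed livers, against 6.46, 8.68 and 9.95 in L-fed livers. The difference was 1.57 ± 0.37 (adjusted p = 0.0215), while a further probe of Thrsp gave 0.40. Its lowest L-fed mice were WL replicate 5 (6.46) and LL replicate 1 (7.25). Scd1, the stearoyl-CoA desaturase, differed by 0.34 ± 0.27 (adjusted p = 0.508). The tested probe of Fasn, the fatty acid synthase, was detected in 5 W-fed and 6 L-fed mice only and read 0.01 ± 0.10 (adjusted p = 0.963), so it gives little information on that gene. Slc25a10, the mitochondrial dicarboxylate carrier, was 0.55 ± 0.09 higher (adjusted p = 0.00184). Pck1, which commits carbon to gluconeogenesis, differed by -0.76 ± 0.23 (adjusted p = 0.0751). Over the 23 genes of glucose and glycogen metabolism, 1 was called higher and 1 lower. These were the phosphofructokinase Pfkl at 0.30 ± 0.08 (adjusted p = 0.0485) and the insulin-like growth factor mRNA-binding protein Igf2bp2 at -0.81 ± 0.20 (adjusted p = 0.0255). Both missed the threshold with slide as a block, at adjusted p = 0.0877 for Pfkl and 0.0661 for Igf2bp2. Pfkl was called in 4 of 22 fits with 1 array left out and Igf2bp2 in 19, each with its highest adjusted p without WL replicate 5 (0.11 for Pfkl and 0.0641 for Igf2bp2).

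Among 16 lipid droplet and PPAR-gamma target genes, 2 were called higher and 1 lower. Cidea, a protein that fuses lipid droplets and is low in lean mouse liver, had 6.46, 9.16 and 11.14 in W-fed livers, against 4.38, 6.51 and 8.52 in L-fed livers. The scatter was wide in both diets. The lowest L-fed values lie near background, where differences are compressed. The difference was 2.56 ± 0.61, higher in W-fed mice (adjusted p = 0.0247), but 0.00 within slide 3, where 1 W-fed mouse stood against 4 L-fed mice. It was called in 20 of 22 fits that left out 1 array, with an adjusted p of 0.0623 without WL replicate 5. Fitm1, which helps form lipid droplets, had 7.65, 9.06 and 9.76 in W-fed livers, against 6.09, 7.88 and 8.39 in L-fed livers, a difference of 1.33 ± 0.26 (adjusted p = 0.00738). Pparg itself had 8.48, 9.06 and 9.45 in W-fed livers, against 6.30, 8.16 and 8.88 in L-fed livers. W-fed mice were tightly grouped and L-fed mice spread widely, the lowest being LL replicate 1 (6.30) and WL replicate 5 (6.66). Its difference was 0.99 ± 0.24 (adjusted p = 0.028), the only call among 18 nuclear receptors (5.56%, against 2.71% of all genes). Pparg was called in 19 of 22 fits, with an adjusted p of 0.0524 without LL replicate 5. Plin5, which couples droplets to mitochondria, was the member called lower at -0.56 ± 0.15 (adjusted p = 0.037). The Plin5 call was lost with slide as a block (adjusted p = 0.074) and held in 10 of 22 fits, with 0.0893 without WL replicate 5. Plin2, the common droplet coat, differed by -0.42 ± 0.17 (adjusted p = 0.157), Plin4 by 1.07 ± 0.35 (adjusted p = 0.0849) and Cidec by 0.82 ± 0.37 (adjusted p = 0.211).

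Of 19 genes of cholesterol synthesis and uptake, 2 were called higher and 0 lower, and their median was 0.288. One of them, Msmo1, a sterol demethylating oxidase, differed by 0.82 ± 0.23 (adjusted p = 0.0485) and was called in 8 of 22 fits, with an adjusted p of 0.101 without WL replicate 5. Insig1, which retains the SREBP complex in the endoplasmic reticulum, differed by 0.60 ± 0.17 (adjusted p = 0.0512). Insig2, the paralog of Insig1, was lower in W-fed mice, with 10.17, 11.51 and 12.18 in W-fed livers, against 11.23, 12.20 and 12.53 in L-fed livers. Its difference was -0.64 ± 0.17 (adjusted p = 0.0472), and all its 3 probes were lower. The call was lost with slide as a block (adjusted p = 0.113) and held in 7 of 22 fits, with 0.108 without WL replicate 5. Osbpl3, an oxysterol-binding protein, was the called member of the sterol export list, at 1.22 ± 0.32 (adjusted p = 0.0372); it was called in 13 of 22 fits, with 0.0844 without WL replicate 5. Cyp7a1, the rate-limiting enzyme of bile acid synthesis, differed by 0.36 ± 0.28 (adjusted p = 0.488). Of 17 bile acid genes 1 was called (5.88%, against 2.71% of all genes). It was the canalicular exporter Abcc2, at 0.33 ± 0.08 (adjusted p = 0.023). Abcc2 missed the threshold with slide as a block (adjusted p = 0.0935), and in 2 of 22 fits with an array left out, the highest being 0.0543 without WL replicate 5.

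Fatty acid hydroxylases and thioesterases had, after male-biased genes, the lowest median of the lists drawn. Of 14 omega-hydroxylases and acyl-CoA thioesterases, 4 were called lower and 0 higher, with a median of -0.311, and the same number was called in each fit that left out 1 array. Acot1, a cytosolic thioesterase that is a strong PPAR-alpha target, had 10.52, 11.88 and 12.79 in W-fed livers, against 12.52, 13.34 and 13.87 in L-fed livers. It was 2.82-fold lower, a difference of -1.50 ± 0.21 (adjusted p = 0.000259), and its other probe gave -1.43. Cyp4a14, which hydroxylates the far end of fatty acids, had 11.93, 12.66 and 13.55 in W-fed livers, against 13.24, 13.73 and 14.50 in L-fed livers. The ranges overlapped little, at a difference of -1.01 ± 0.17 (adjusted p = 0.00161). The related Cyp4a31 differed by -1.06 ± 0.19 (adjusted p = 0.00265) and the peroxisomal thioesterase Acot8 by -0.45 ± 0.09 (adjusted p = 0.00831). The other 2 probes of Acot8 gave -0.16 and 0.09.

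The 24 fatty acid oxidation genes had a median of -0.012, which ran from -0.053 without WW replicate 1 to 0.015 without LL replicate 4. Of them 0 were called higher and 1 lower (4.17%, against 2.71% of all genes). That gene was Ehhadh, the peroxisomal bifunctional enzyme, with 5.73, 6.60 and 7.22 in W-fed livers, against 6.36, 7.49 and 9.78 in L-fed livers. It differed by -1.10 ± 0.28 (adjusted p = 0.0345) and was called in 15 of 22 fits, with an adjusted p of 0.0708 without LW replicate 1. Of the 24 genes, 11 had a positive and 13 a negative difference. Outside this list, Acsl1, Slc22a5 and Hacl1 were chosen after their values were seen. Acsl1, which activates long-chain fatty acids, was lower, at -0.64 ± 0.14 (adjusted p = 0.0141). Slc22a5, the carnitine importer, was lower, at -0.72 ± 0.15 (adjusted p = 0.0136), as were its 2 other probes. Hacl1, which shortens branched fatty acids in peroxisomes, was lower, at -0.70 ± 0.13 (adjusted p = 0.00552). Ppara, the receptor that activates many of these genes, differed by -0.20 ± 0.12 (adjusted p = 0.367), and of 13 fasting-responsive and PPAR-alpha target genes in a further list 0 were called in either direction. That list does not hold Acot1, Cyp4a14 and Ehhadh, which are PPAR-alpha targets called lower here. In ketone metabolism 1 of 7 genes was called, the ketone dehydrogenase Bdh1 at 0.40 ± 0.10 (adjusted p = 0.0292). Bdh1 missed the threshold with slide as a block (adjusted p = 0.118) and was called in 18 of 22 fits, with 0.0714 without WL replicate 5. Of 19 genes of lipoprotein assembly 0 were called, with a median of -0.049 (-0.087 without LW replicate 1).

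**Figure D3:**
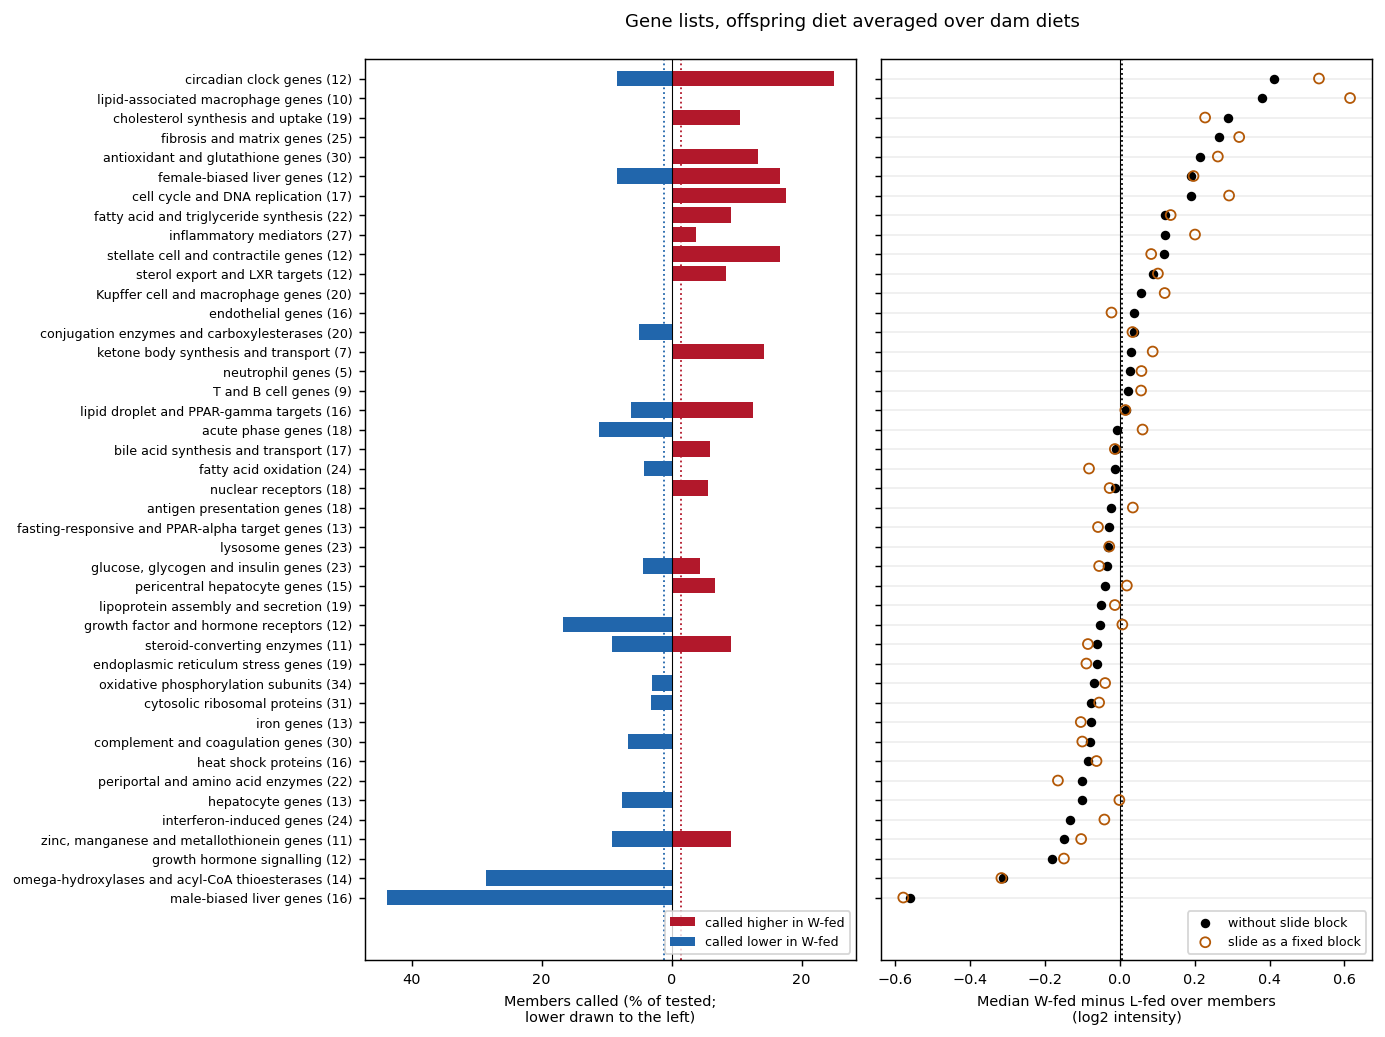
Left, share of each list's tested genes called higher (red, to the right) or lower (blue, to the left) in W-fed mice, in percent, with the shares over all genes as dotted lines; the number of tested genes is in parentheses and lists with at least 5 are drawn. Right, median log2 difference, W-fed minus L-fed, without slide (black) and with slide as a fixed block (open orange); male-biased genes lie lowest at -0.559 and circadian clock genes highest at 0.411 without slide.

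The glutathione system conjugates reactive products with glutathione. Of 30 antioxidant and glutathione genes, 4 were called higher and 0 lower, with a median of 0.215. The median was 0.123 without WL replicate 5, and 0.062 without both WL replicate 5 and LL replicate 1. Gstm2, a glutathione transferase, had 11.71, 12.46 and 12.87 in W-fed livers, against 10.70, 11.36 and 12.60 in L-fed livers. The difference was 0.91 ± 0.16 (adjusted p = 0.00322), and its other 2 probes gave 0.81 and 1.06. Mgst3, a membrane-bound transferase, differed by 0.97 ± 0.23 (adjusted p = 0.0215), Gsta4, which conjugates lipid peroxidation aldehydes, by 0.87 ± 0.21 (adjusted p = 0.0254) and Ephx1, the microsomal epoxide hydrolase, by 0.49 ± 0.11 (adjusted p = 0.017). For Mgst3 the lowest L-fed mice were WL replicate 5 (7.75) and LL replicate 1 (9.40). With slide as a block Gsta4 (adjusted p = 0.115) and Ephx1 (adjusted p = 0.0672) missed the threshold. Gsta4 was called in 18 of 22 fits, with 0.0634 without WL replicate 5. Gsta1 had 5.83, 8.68 and 10.39 in W-fed livers, against 4.58, 6.31 and 9.65 in L-fed livers. Its difference of 1.79 ± 0.54 missed the threshold (adjusted p = 0.0707) and passed with slide as a block (adjusted p = 0.0288). Nqo1, a quinone reductase, differed by 0.52 ± 0.15 (adjusted p = 0.0672, and 0.0142 with the block). The number of called members ran from 3 to 10 over the fits with an array left out, the 3 without LW replicate 1.

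Cyp2a5, a nicotine and bilirubin hydroxylase of pericentral hepatocytes, had 12.23, 12.92 and 13.59 in W-fed livers, against 11.18, 12.29 and 12.91 in L-fed livers. It was 0.81 ± 0.19 higher (adjusted p = 0.0215), as were its 4 other probes at 0.67 to 1.17; without LW replicate 1 the adjusted p was 0.0509. It was the only call among 15 pericentral genes, and 0 of 22 periportal and amino acid enzymes were called. Cyp2c67 had 11.127, 11.344 and 11.711 in W-fed livers, against 11.620, 11.999 and 12.550 in L-fed livers. It was lower in W-fed mice, at -0.66 ± 0.10 (adjusted p = 0.0012), and its other probe gave -0.57. Ugt2b1, a glucuronosyltransferase, was the called member of 20 conjugation enzymes at -0.68 ± 0.16 (adjusted p = 0.0225), with 0.0526 without LW replicate 1. That is 5% of the list, against 2.71% of all genes.

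Clock genes had the highest median of the lists drawn in the fit without slide. Of 12 circadian genes tested 3 were called higher and 1 lower in W-fed mice, with a median of 0.411. Clock, an activator at the core of the oscillator, had 7.82, 8.16 and 8.45 in W-fed livers, against 8.32, 8.70 and 9.05 in L-fed livers. Most W-fed mice lay below the lowest L-fed mouse, and the difference was -0.53 ± 0.09 (adjusted p = 0.00207). Ciart, a repressor of the clock, had 5.75, 7.89 and 8.87 in W-fed livers, against 4.73, 6.12 and 7.82 in L-fed livers, 1.75 ± 0.37 higher (adjusted p = 0.014). Its other 2 probes gave 1.52 and 1.61.

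The clock-driven protease Usp2 differed by 1.45 ± 0.37 (adjusted p = 0.0337) and the output factor Dbp by 0.92 ± 0.24 (adjusted p = 0.0341). Usp2 and Dbp were each called in 12 of 22 fits, with adjusted p of 0.0841 for Usp2 and 0.0824 for Dbp without WL replicate 5. Rgs16, a regulator of G protein signalling with a strong daily rhythm in liver, had 7.38, 10.92 and 12.15 in W-fed livers, against 5.94, 8.62 and 10.69 in L-fed livers. The difference was 1.86 ± 0.47 (adjusted p = 0.0306), called in 12 of 22 fits, with 0.0767 without WL replicate 5. Per2 differed by 0.76 ± 0.27 (adjusted p = 0.108, and 0.0279 with slide as a block). The number of called clock genes ran from 2 to 5 over the fits with an array left out, and the median from 0.320 to 0.539. The labels do not give the hour at which each mouse was killed, so the part of sampling time in these values was not tested.

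**Figure D4:**
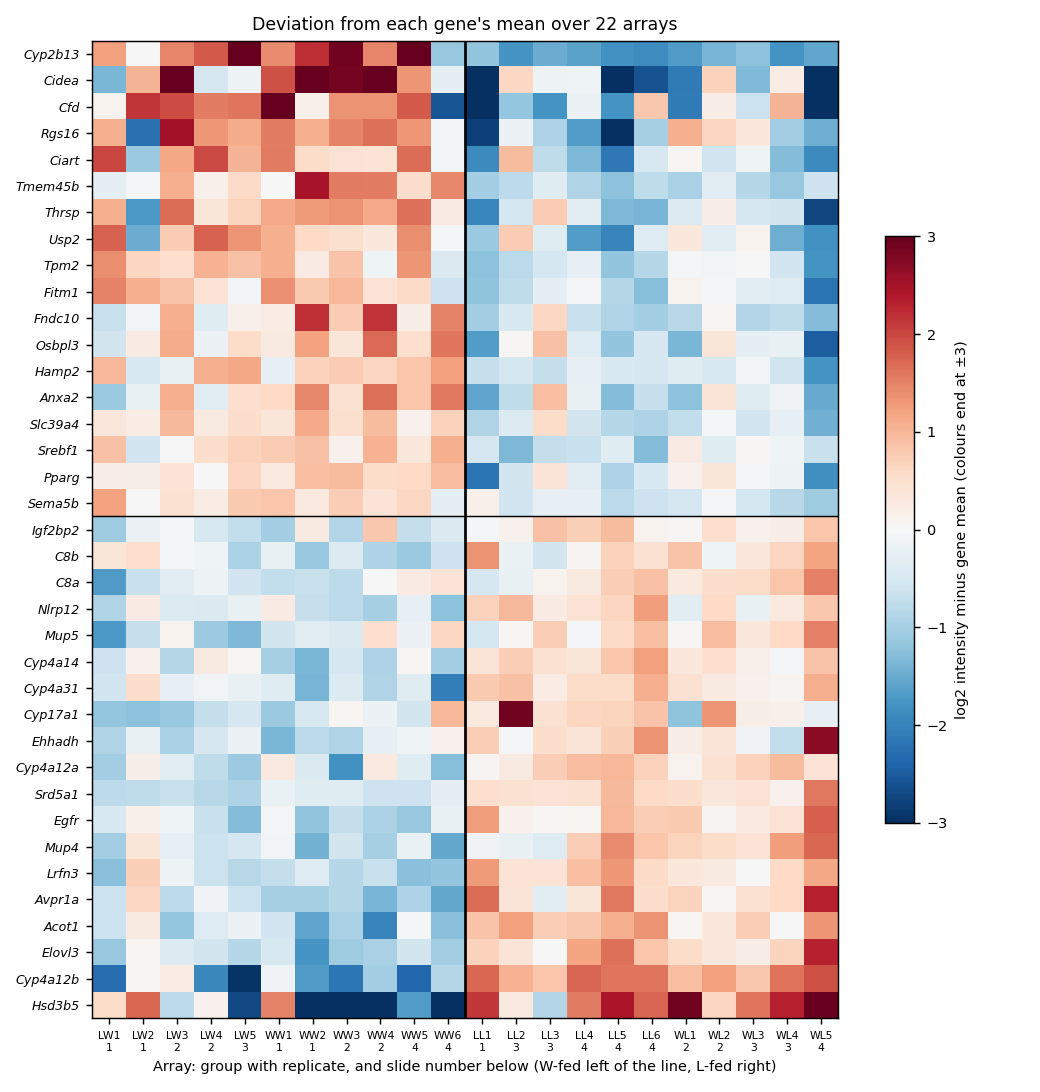
Log2 intensity minus the gene's mean over 22 arrays for the same 37 genes as in the plot of differences, by array, with the slide number under each array name and W-fed arrays left of the line. The clock-related rows Rgs16, Ciart and Usp2 and the lipid rows Cidea and Thrsp vary within both diets, and LL replicate 1 and WL replicate 5 are low in several of the upper rows.

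Metal transporters moved in both directions. Slc39a4, the zinc importer ZIP4, had 9.001, 9.363 and 10.004 in W-fed livers, against 7.442, 8.312 and 9.433 in L-fed livers. It was 1.10 ± 0.18 higher in W-fed mice (adjusted p = 0.00161), and its other probe gave 0.44. Slc30a10, a manganese exporter, had 6.87, 7.48 and 8.01 in W-fed livers, against 7.71, 8.30 and 9.27 in L-fed livers. It was lower, at -0.77 ± 0.13 (adjusted p = 0.00207), as were its 2 other probes. These were the 2 called members of 11 zinc, manganese and metallothionein genes, and 0 of 13 iron genes were called.

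The MCM proteins form the helicase that opens replication origins. Of 17 cell cycle and DNA replication genes 3 were called higher and 0 lower, with a median of 0.190. The median was 0.501 in sons of W dams (WW minus WL) and -0.017 in sons of L dams (LW minus LL), a difference that was not tested for the list. Mcm5 had 5.76, 6.02 and 6.43 in W-fed livers, against 4.54, 5.37 and 5.78 in L-fed livers, with almost no overlap. Its difference was 0.69 ± 0.14 (adjusted p = 0.00781). Mcm2 differed by 0.70 ± 0.15 (adjusted p = 0.0129) and Mcm4 by 0.53 ± 0.12 (adjusted p = 0.0203). E2f1, a transcription factor of the start of DNA synthesis, was 0.50 ± 0.12 higher (adjusted p = 0.0316); it was called in 14 of 22 fits, with 0.077 without WL replicate 5. Ccnd1, cyclin D1, differed by 0.69 ± 0.22 (adjusted p = 0.0842).

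Called members of the complement and coagulation list and of the acute phase list were lower in W-fed mice. Of 30 complement and coagulation genes 2 were lower and 0 higher in W-fed mice (6.67%, against 2.71% of all genes). They were the membrane attack subunits C8a and C8b. The complement component C6, also called lower, was counted with the male-biased genes. C8a had 5.94, 7.07 and 8.05 in W-fed livers, against 7.14, 8.16 and 9.15 in L-fed livers, a difference of -0.95 ± 0.21 (adjusted p = 0.0149). C8b differed by -0.84 ± 0.21 (adjusted p = 0.0292) and was called in 17 of 22 fits, with 0.0719 without WL replicate 5. Of 18 acute phase genes 2 were lower and 0 higher. Crp, C-reactive protein, differed by -0.49 ± 0.13 (adjusted p = 0.0485), missed the threshold with slide as a block (adjusted p = 0.0786) and was called in 8 of 22 fits, with 0.109 without WL replicate 5. The other was Fgb, whose tested probe was detected in 1 W-fed and 6 L-fed mice and therefore says little about fibrinogen. Nlrp12, a receptor that restrains inflammatory signalling, had 8.99, 9.80 and 10.48 in W-fed livers, against 9.92, 10.83 and 11.47 in L-fed livers. It was lower, at -0.95 ± 0.18 (adjusted p = 0.0046).

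Inflammation and fibrosis are the subject named in the title of the study. Of 27 inflammatory mediators 1 was called (3.70%, against 2.71% of all genes), the neutrophil-attracting chemokine Cxcl1. It had 9.03, 9.69 and 10.90 in W-fed livers, against 7.13, 8.76 and 9.73 in L-fed livers, a difference of 0.95 ± 0.21 (adjusted p = 0.0182). Of the 27 genes 22 had a positive difference and the median was 0.121, where 51.2% of all genes were positive. That median was 0.045 without WW replicate 6, and without both LL replicate 1 and WL replicate 5 it was 0.051 with 18 of 27 positive. It was 0.270 in sons of W dams and -0.058 in sons of L dams, a difference that was not tested. Of 25 fibrosis and matrix genes 0 were called, 20 had a positive difference and the median was 0.265. Col1a1 differed by 0.59 ± 0.26 (adjusted p = 0.21), Timp1 by 0.69 ± 0.28 (adjusted p = 0.172) and Lgals1, galectin-1, by 1.34 ± 0.39 (adjusted p = 0.0609). Lgals1 passed the threshold with slide as a block (adjusted p = 0.033). Tnf and Ccl2 did not meet the detection filter and were not tested.

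Of 20 Kupffer cell and macrophage genes 0 were called, with a median of 0.058 (0.009 without WW replicate 6). The median was 0.283 in sons of W dams and -0.188 in sons of L dams, a difference that was not tested. Adgre1, the F4/80 antigen, differed by -0.25 ± 0.11 (adjusted p = 0.186) and Cd68 by 0.21 ± 0.17 (adjusted p = 0.496). Of 10 genes of lipid-associated macrophages 0 were called, though the median was 0.380 and 9 were positive. Their median was 0.777 in sons of W dams and 0.057 in sons of L dams, again untested, 0.615 with slide as a block, and 0.203 without both LL replicate 1 and WL replicate 5. Gpnmb, a marker of those macrophages, had 4.88, 6.71 and 10.75 in W-fed livers, against 4.60, 6.19 and 9.58 in L-fed livers. The spread among mice of 1 diet was far wider than its difference of 1.00 ± 0.60 (adjusted p = 0.364). The same was seen for Trem2, at 0.54 ± 0.35 (adjusted p = 0.413). No member was called among 9 T and B cell genes, 5 neutrophil genes, 16 endothelial genes, 18 antigen presentation genes and 24 interferon-induced genes. The limma test called 2 of 12 stellate cell and contractile genes, and Tpm2 alone with slide as a block and without both LL replicate 1 and WL replicate 5. Tpm2, a tropomyosin of contractile cells, had 6.05, 7.33 and 7.87 in W-fed livers, against 4.70, 5.91 and 6.47 in L-fed livers, 1.34 ± 0.22 higher (adjusted p = 0.00161). The summed intensity of the 12 genes had a lowest, median and highest value of 1895, 2464 and 3578 in W-fed and of 1878, 2208 and 2435 in L-fed mice. Of 13 hepatocyte genes 1 was called, the transcription factor Foxa1 at -0.53 ± 0.12 (adjusted p = 0.0189). Anxa2, annexin A2, which is low in healthy hepatocytes, differed by 1.12 ± 0.29 (adjusted p = 0.0345) and was called in 14 of 22 fits, with 0.0851 without WL replicate 5.

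Cfd, adipsin, was the called member of the adipose list. It had 5.51, 9.60 and 11.19 in W-fed livers, against 4.48, 6.91 and 9.10 in L-fed livers. The lowest L-fed values lie near background, where differences are compressed. The difference was 2.30 ± 0.59, higher in W-fed mice (adjusted p = 0.0345). The call was lost with slide as a block (adjusted p = 0.074) and held in 13 of 22 fits, with 0.0841 without WL replicate 5. Among 8 adipose genes 3 were measured, and Adipoq, Plin1, Retn, Adig and Slc36a2 did not meet the detection filter. Of the others, Lep differed by -0.07 (adjusted p = 0.807) and Car3 by 0.32 (adjusted p = 0.212). The summed intensity of these 3 genes had a lowest, median and highest value of 8487, 13490 and 15310 in W-fed and of 4541, 10240 and 13640 in L-fed mice. Car3, at log2 intensities of 12.13 to 13.83, made up most of this sum, which therefore says little about Cfd or Lep. The part of carried-over fat in the Cfd value was not tested. The erythroid globins Hba-a1 and Hbb-b1 differed by 0.45 ± 0.14 (adjusted p = 0.0757) and 0.41 ± 0.13 (adjusted p = 0.0761); the summed intensity of 4 erythroid genes had a median of 39490 in W-fed and 30760 in L-fed mice. The part of blood in the named results was not tested. Of 34 subunits of oxidative phosphorylation 1 was called (2.94%, against 2.71% of all genes). It was the cytochrome c oxidase subunit Cox7b, at -0.43 ± 0.12 (adjusted p = 0.0456). It missed the threshold with slide as a block (adjusted p = 0.104) and without WL replicate 5 (adjusted p = 0.102).

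Further called genes lay outside these lists. Tmem45b, a membrane protein, had 5.22, 6.08 and 7.99 in W-fed livers, against 4.27, 4.65 and 5.16 in L-fed livers. The diets did not overlap, the gene being detected in 11 W-fed and 3 L-fed mice. Its difference was 1.59 ± 0.21 (adjusted p = 0.000259). Slc22a18, an organic cation transporter-like protein, was separated too but by a small step, with 11.42, 11.61 and 11.83 in W-fed livers, against 10.93, 11.35 and 11.41 in L-fed livers. That difference was 0.32 ± 0.08 (adjusted p = 0.0253), with an adjusted p of 0.0555 under the slide block and 0.0578 without WL replicate 5. Smim1, a small membrane protein that carries the Vel blood group in humans, was lower, at -0.70 ± 0.10 (adjusted p = 0.000259), and Lrfn3, a leucine-rich repeat adhesion protein, by -1.28 ± 0.19 (adjusted p = 0.000731). Lrfn3 had 6.60, 7.14 and 8.58 in W-fed livers, against 7.88, 8.44 and 9.17 in L-fed livers. Cdh1, E-cadherin, was lower, at -0.71 ± 0.12 (adjusted p = 0.00176) and was detected in 4 W-fed and 11 L-fed mice. Nedd4l, a ubiquitin ligase, was lower, at -0.57 ± 0.10 (adjusted p = 0.00233). Tmem237, a ciliary transition zone protein, was higher by 0.94 ± 0.15 (adjusted p = 0.00161), Rcan2, a calcineurin regulator, by 0.90 ± 0.15 (adjusted p = 0.00207) and Fndc10 by 1.26 ± 0.27 (adjusted p = 0.0129). Sema5b, a semaphorin, was higher by 0.98 ± 0.16 (adjusted p = 0.00161), and Treh, trehalase, by 0.59 ± 0.11 (adjusted p = 0.0038). A pair of called genes were detected in 1 diet only and met the detection filter through it alone, so their differences are bounds close to 1-fold: the NAD-synthesising Nmnat3 was at least 1.18-fold higher in W-fed mice (detected in 10 W-fed and 0 L-fed mice, adjusted p = 0.00755), and Zfp583 at least 1.02-fold lower (detected in 0 W-fed and 5 L-fed mice, adjusted p = 0.0298). Zfp583 was called in 18 of 22 fits, with 0.0628 without LW replicate 1. For Nmnat3 and Zfp583 these fits set 1 diet against values below detection, so nothing is read from their calls. Cyp2b13, Tmem45b and Cdh1 also reached 5 detected arrays only within the diet where they were higher. Their differences are therefore in part against values below detection, and their adjusted p-values carry that limit.

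The average was next set beside its components, WW against WL in sons of W dams and LW against LL in sons of L dams. These comparisons have no array in common. The first called 47 genes (0.476%) and the second 24 (0.243%), fewer than the average of both, and 5 genes were called in all of them: Cyp2b13, Cyp4a12b, Acot1, Lrfn3 and Srd5a1. Of the 268 genes 215 were called in neither component. All 268 had the same sign in both, where 59.0% of all genes did; the average itself favours such genes, so nothing is read from that share. Over all 9881 genes the 2 differences had a Pearson correlation of 0.378 and a Spearman correlation of 0.292, given as a description across genes. Median differences of the genes called higher were 0.516 in sons of W dams and 0.495 in sons of L dams. Those of the genes called lower were -0.484 in sons of W dams and -0.566 in sons of L dams.

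**Figure D5:**
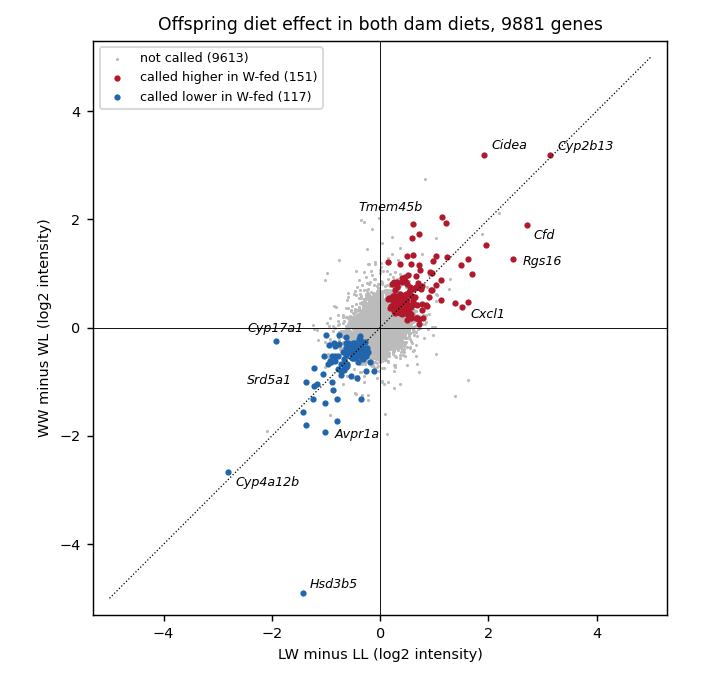
Log2 difference WW minus WL against LW minus LL for 9881 genes, with genes called higher (red) or lower (blue) in the average and equality as a dotted line. Cyp2b13 lies near equality at 3.18 (WW minus WL) and 3.14 (LW minus LL), whereas Hsd3b5 lies at -4.90 (WW minus WL) and -1.43 (LW minus LL).

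The test of the difference between dam diets, (WW - WL) - (LW - LL), called 0 genes by limma at an adjusted p below 0.05, with 790 at an unadjusted p below 0.05 and a lowest adjusted p of 0.266. Several genes nevertheless had unequal components, and these are values without a call. Hsd3b5 differed by -4.90 in sons of W dams and by -1.43 in sons of L dams (adjusted p of the interaction = 0.537 by limma). Cyp17a1 differed by -0.26 in sons of W dams and by -1.92 in sons of L dams (adjusted p of the interaction = 0.537), and Cxcl1 by 0.38 and 1.51 (adjusted p = 0.569). Bdh1 differed by 0.07 in sons of W dams and by 0.72 in sons of L dams (adjusted p = 0.504). Cidec differed by 1.95 in sons of W dams and by -0.30 in sons of L dams (adjusted p = 0.518). Genes can also cancel in the average: Dip2c, with the lowest adjusted p of the interaction (0.266), differed by -0.50 in sons of W dams and by 0.36 in sons of L dams, and its average was -0.07. Arrdc3, an arrestin-domain protein, differed by -0.82 and 0.71, with an average of -0.06. The average over the sons' diets of the dams' own diet called 0 genes, with 582 at an unadjusted p below 0.05.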

How the data were processed

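Liver RNA of 22 mice was hybridised to Illumina BeadChips after biotin labelling with a TotalPrep kit, per the labels. The deposited table gives, per the file headers, an intensity and a detection p-value for each of 45281 probes and each array; 33.2% to 41.2% of the intensity values per array lie below 0, so a background had been subtracted before deposit. A second deposited table, the series matrix, gives normalized intensity values on a linear scale; how the authors normalized them, and whether slides were adjusted, is not given in the sources used here. All 22 of its columns matched their own array best, and it served as an alternative.

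Background correction and quantile normalization used the neqc function (limma 3.58.1, R 4.3.3); the negative-control level was inferred through detection p-values and 16 was added as offset. Probe symbols were matched to RefSeq (GRCm38.p6, names only): 35713 probes (78.87%) matched 1 gene, 191 several and 9377 none. Of 16268 probes detected on at least 5 arrays 14409 had a name, giving 9881 genes. The 4 group means were fitted with lmFit and eBayes, and p-values were two-sided and adjusted over all genes after Benjamini-Hochberg. Simulated data with 200 changed genes gave 71.6%, 100% and 100% recovered at log2 changes of 0.5, 1 and 2, with 6.7% false calls; they held no slide differences.

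The comparison, its members and the 48 gene lists were chosen with earlier results of these data known. Named genes are, among called genes, the 20 highest and 20 lowest differences without unnamed gene models; from each list, the members with the smallest p, 6 at most; the 5 smallest p of the interaction; and some genes fixed for naming, of which Tnf, Ccl2 and Cd36 did not meet the filter. A subset is printed, and some genes are not reported here. Outside the rule, chosen after their values were seen, are C6, Cyp2c67, Cyp7b1, Acsl1, Slc22a5, Hacl1, Smim1, Slc22a18, Slc25a10, E2f1, Insig2, Gsta1, Cdh1, Nedd4l, Treh, Tmem237, Rcan2, Nmnat3, Zfp583, Mup1, Cyp2d9, Cyp2u1, Ghr, Ttr, Ahsg and Apoa1. Lists carry no test and are given by counts and medians. Alternatives were the deposited values, median scaling, another offset, other detection filters, all probes, slide and replicate number as blocks, 2 groups by offspring diet, other thresholds and leaving out arrays.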

Additional observations from a re-analysis of the deposited data

Results flagged for a closer look

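Each of the 119 genes of the named set was examined within each of the 4 groups for a mouse far from the rest, by Dixon's test on the gap to the nearest mouse over the range of the group. Of 476 cases 42 passed, where chance gives about 1 in 20. WL replicate 5 had 12 of them and LL replicate 1 had 6, and both are L-fed. LL replicate 1 also had the lowest mean signal of all arrays (151.1) and was the only L-fed array on slide 1. All values are log2 intensities, and no cause was tested.

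WL replicate 5 lay below the rest of its group for Thrsp at 6.46 (others 8.64 to 9.40), Pparg at 6.66 (others 8.34 to 8.87), Fitm1 at 6.09 (others 7.88 to 8.39), Mgst3 at 7.75 (others 9.92 to 10.20), Slc22a18 at 10.93 (others 11.31 to 11.41), E2f1 at 5.36 (others 5.93 to 6.10), Cyp2b9 at 4.69 (others 9.64 to 11.41) and Plin4 at 6.39 (others 9.02 to 10.06). WL replicate 5 was high for Elovl3 at 12.16 (others 10.07 to 10.54), Srd5a1 at 9.56 (others 8.09 to 8.50), Avpr1a at 10.43 (others 8.16 to 8.78) and Pck1 at 7.96 (others 5.94 to 6.33). LL replicate 1 lay below the rest of its group for Msmo1 at 5.80 (others 7.54 to 8.16), Cyp2b9 at 5.99 (others 9.54 to 11.62) and Ttr at 13.56 (others 14.24 to 14.39). LL replicate 1 was high for Igf1 at 13.63 (others 12.68 to 12.87), Slc30a10 at 9.27 (others 8.27 to 8.54) and Insig2 at 12.51 (others 12.18 to 12.23). LL replicate 3 lay below the rest of its group for Ahsg at 14.82 (others 15.09 to 15.17). LL replicate 3 was high for Slc39a4 at 9.43 (others 7.94 to 8.46), Fndc10 at 6.86 (others 5.19 to 5.78) and Nqo1 at 6.72 (others 5.44 to 5.87). WW replicate 6 lay below the rest of its group for Thrsp at 9.45 (others 10.33 to 10.84), Rgs16 at 9.54 (others 10.70 to 11.28) and Cyp2b9 at 8.82 (others 11.57 to 12.31). WW replicate 6 was high for Cxcl1 at 10.90 (others 9.12 to 9.78). LL replicate 5 lay above the rest of its group for Srd5a1 at 8.95 (others 8.41 to 8.56) and Apoa1 at 15.10 (others 14.92 to 14.97). LL replicate 6 lay above the rest of its group for Acsl1 at 12.33 (others 11.74 to 11.91) and Hacl1 at 7.34 (others 6.62 to 6.86). LW replicate 1 lay above the rest of its group for Slc25a10 at 12.03 (others 11.55 to 11.66). LW replicate 3 lay above the rest of its group for Fasn at 5.03 (others 4.83 to 4.88) and Col1a1 at 6.13 (others 4.61 to 4.95). WL replicate 4 lay above the rest of its group for Cdh1 at 6.13 (others 5.26 to 5.47) and Zfp583 at 5.15 (others 4.76 to 4.87). WW replicate 5 lay above the rest of its group for Foxa1 at 7.03 (others 6.42 to 6.60) and Per2 at 8.73 (others 7.47 to 7.86). LL replicate 2 lay above the rest of its group for Cyp17a1 at 11.12 (others 8.52 to 9.08). LW replicate 2 lay above the rest of its group for Nedd4l at 8.91 (others 8.12 to 8.21). WL replicate 1 lay above the rest of its group for Srd5a2 at 5.25 (others 4.39 to 4.61). WL replicate 3 lay below the rest of its group for Dip2c at 5.32 (others 5.55 to 5.65). WW replicate 2 lay below the rest of its group for Apoa1 at 14.72 (the highest other 15.10).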

How the results depend on the processing

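The number of genes called in the average, 268, was 236 with the deposited normalized values, 312 with an offset of 50, 193 without a detection filter (19919 genes), 295 with detection on at least 11 arrays, 382 over all probes, 248 with slide as a fixed block, 307 with slide as a random block and 290 with the dams' diet left out of the model. It was 139 with median scaling (103 higher and 36 lower), 48 at an adjusted p below 0.01 and 724 at an adjusted p below 0.1. Without LL replicate 1 and WL replicate 5 together it was 208, with 163 of the 268 among them. Leaving out 1 array gave 136 to 524 genes, the fewest without WL replicate 5 and the most without LL replicate 1; 116 of the 268 were called whichever array was left out. The interaction had 0 calls in the other settings and 1 call without WW replicate 1, so 0 to 1 over the fits with 1 array left out. The replicate number as a block gave 788 calls (447 higher and 341 lower, with all 268 among them). Those numbers were not taken as pairs, since the labels state no blocking. Some same-number arrays shared a slide, such as LW, WW and LL replicate 1 on slide 1, and what else they share was not tested. Of 31 same-number pairs 16 had a correlation of their deviations over 0.1 (range -0.182 to 0.452). The median was 0.111 for the same and -0.028 for other numbers, and 10 of 22 arrays correlated best with an array of their own number.

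Over 119 named genes and all alternatives there were 3924 values, of which 327 lost the call and 68 gained it. Among genes called in the main fit 0 values reversed direction. Sign changes of genes not called there were not counted. With median scaling 21 lost and 1 gained it. Without LL replicate 1 and WL replicate 5 together 19 lost and 0 gained it. The deposited values have array medians of 244.9 to 245.2, which compresses differences of dim genes: Cyp2b13 differed by 0.64 there, against 3.16. Signal over background limits dim genes, and array number limits precision; in simulated data 71.6% of genes changed by 0.5 were recovered.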
